A study of Mus musculus with 10 samples.

Results

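Lysosomal degradation was followed here through 43 genes, namely 11 proteases, 6 lipid hydrolases and activator proteins, 8 glycosidases, 3 membrane proteins, 12 subunits of the vacuolar-type proton pump (V-ATPase) and the 3 transcription factors Tfeb, Tfe3 and Mitf. The genes were taken from a list of symbols and matched by NCBI Gene ID, and all 43 were found among the 39488 rows of the count table. All 43 also passed the filter on low counts and were among the 12654 genes tested.

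Total RNA of mouse peritoneal macrophages was sequenced on the BGISEQ-500 platform in 10 libraries, 5 control and 5 ox-LDL, which the series describes as biological replicates. The question was which transcripts differ in macrophages exposed to ox-LDL, the oxidized lipoprotein that loads macrophages of atherosclerotic lesions with lipid. Cells of both groups came from wild-type C57BL/6 mice aged 8 weeks, were elicited with thioglycollate, a sterile irritant, and were collected on the third day and cultured. Whether the cells of several mice were pooled is not given. The ox-LDL group received the bacterial lipopolysaccharide LPS at 100 ng/ml and then 16 h of ox-LDL at 100 µg/ml. The control group is labelled as untreated. One legend in the study leaves room for LPS in the controls too. The labels were followed, and by them the effects of LPS and of ox-LDL cannot be told apart.

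Lysosomes receive the cargo of endocytosis, phagocytosis and autophagy and break it down with hydrolases that work at acidic pH. The acid is made by the V-ATPase, whose cytosolic V1 sector hydrolyzes ATP and whose membrane V0 sector moves protons into the lumen. In macrophages, cholesteryl esters taken up with lipoproteins are hydrolyzed in lysosomes, and many lysosomal genes carry a CLEAR motif near their start, a DNA element bound by factors of the MiT/TFE family.

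The libraries were nearly even in depth, with 19257131 to 20687289 estimated reads each. The 43 genes took 8.00% to 9.71% of the counts in control libraries and 5.39% to 7.50% in ox-LDL libraries. These are shares of raw counts, before any scaling between libraries, and the most abundant genes weigh most in them. The shares were not tested, and the median log2 fold change of the 43 genes was -0.06. Markers of macrophages were present in all 10 libraries, and each of the 7 examined had at least 29.1 CPM (CPM, TMM-normalized counts scaled to a common library size, is the unit of gene levels unless FPKM is named). Library ox-LDL 2 stood apart, with a TMM factor of 0.593 against 0.837 to 1.19 elsewhere. In 3 libraries, expression relative to the group mean decreased with gene length. Over the 12654 genes tested, the Spearman correlation of this deviation with gene length was -0.60 in control 1, -0.49 in control 4 and -0.66 in ox-LDL 2, against 0.06 to 0.54 in the other 7 libraries.

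Of the 43 lysosomal genes, 1 rose and 2 fell in ox-LDL-treated macrophages at an adjusted p below 0.01. Gaa, the acid alpha-glucosidase that degrades glycogen, rose 2.78-fold, whereas Gusb, the beta-glucuronidase, fell 2.36-fold and Atp6v0a1, the a1 subunit of the V0 sector, fell 3.19-fold. Over all genes tested (quasi-likelihood test of edgeR, p-values adjusted by Benjamini-Hochberg), 9.40% were called higher and 5.35% lower, or 14.7% in either direction, against 6.98% of the lysosomal genes. The median log2 fold change was -0.06 over the 43 genes, with a range of -1.67 to 1.47, and 0.10 over all genes tested. At an adjusted p below 0.05, 4 genes were called higher (Gaa, Ctsc, Neu1 and Mcoln1) and 8 lower (Ctsd, Lgmn, Lipa, Gm2a, Gusb, Hexa, Atp6v0a1 and Tfeb). The lower genes made 18.6% of the list, against 10.4% of all genes called lower at that threshold, and the higher genes 9.3%, against 16.2%.

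**Figure D1:**
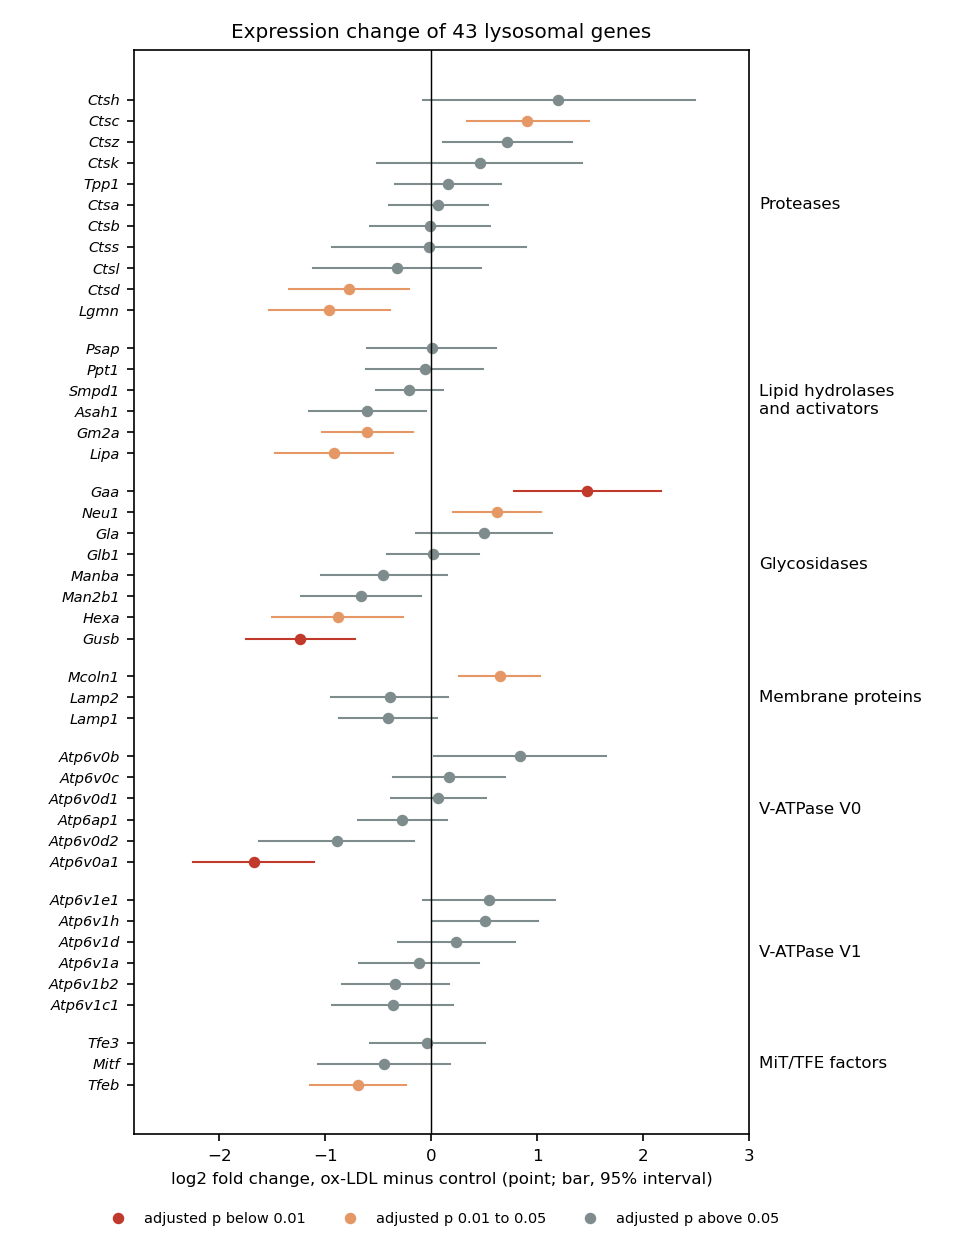
Log2 fold change of each of the 43 genes, ox-LDL minus control, with its 95% interval, by role of the protein (n = 5 libraries per group). Gaa, Gusb and Atp6v0a1 are in red (adjusted p below 0.01), 9 more genes are in orange (below 0.05), and the other 31 are in gray.

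The count of lower genes depended on library ox-LDL 2. Without it, 1 gene was called higher (Gaa) and 8 lower (Ctsd, Lgmn, Lipa, Asah1, Gusb, Hexa, Atp6v0a1 and Atp6v0d2), against 13.5% and 11.6% of all genes. With each library's length trend removed, 5 genes were called higher and 7 lower, against 13% and 9.65% of all genes. Among the 31 genes not called at 0.05, the 95% interval of the difference lay within a 2-fold change either way for 18, and a gene with the median error of the list (0.26) needed an absolute log2 fold change of 1.06 to reach 0.01.

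The libraries of the groups did not overlap for 3 genes that were higher in ox-LDL (Gaa, Neu1 and Mcoln1) and for 7 that were lower (Ctsd, Lgmn, Lipa, Gm2a, Gusb, Lamp1 and Atp6v0a1). Over all genes tested, 11.6% were higher and 9.11% lower without overlap. The plot of values by library shows the 12 genes called at 0.05, of which Ctsc, Hexa and Tfeb are the ones whose groups overlap. Lamp1 is not among them.

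Most calls at 0.05 depended on single libraries. Lgmn and Lipa kept theirs whichever library was left out (edgeR adjusted p of up to 0.0489 and 0.0454), as did Gaa, Gusb and Atp6v0a1. The Ctsd call was lost when any library other than ox-LDL 1 or ox-LDL 2 was left out (edgeR adjusted p of up to 0.107). Hexa lost it without control 1, 4 or 5 or ox-LDL 1, 3, 4 or 5 (up to 0.0992), and Gm2a without any control library or without ox-LDL 3 or 4 (up to 0.112). Among the genes with higher means, Ctsc lost its call without control 2, 3, 4 or 5 (up to 0.0594), Neu1 without control 1, 2, 3 or 4 or ox-LDL 4 (up to 0.0839), and Mcoln1 without control 1 (0.0529). Tfeb lost it without control 4 or 5 or ox-LDL 1 or 3 (up to 0.0746).

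**Figure D2:**
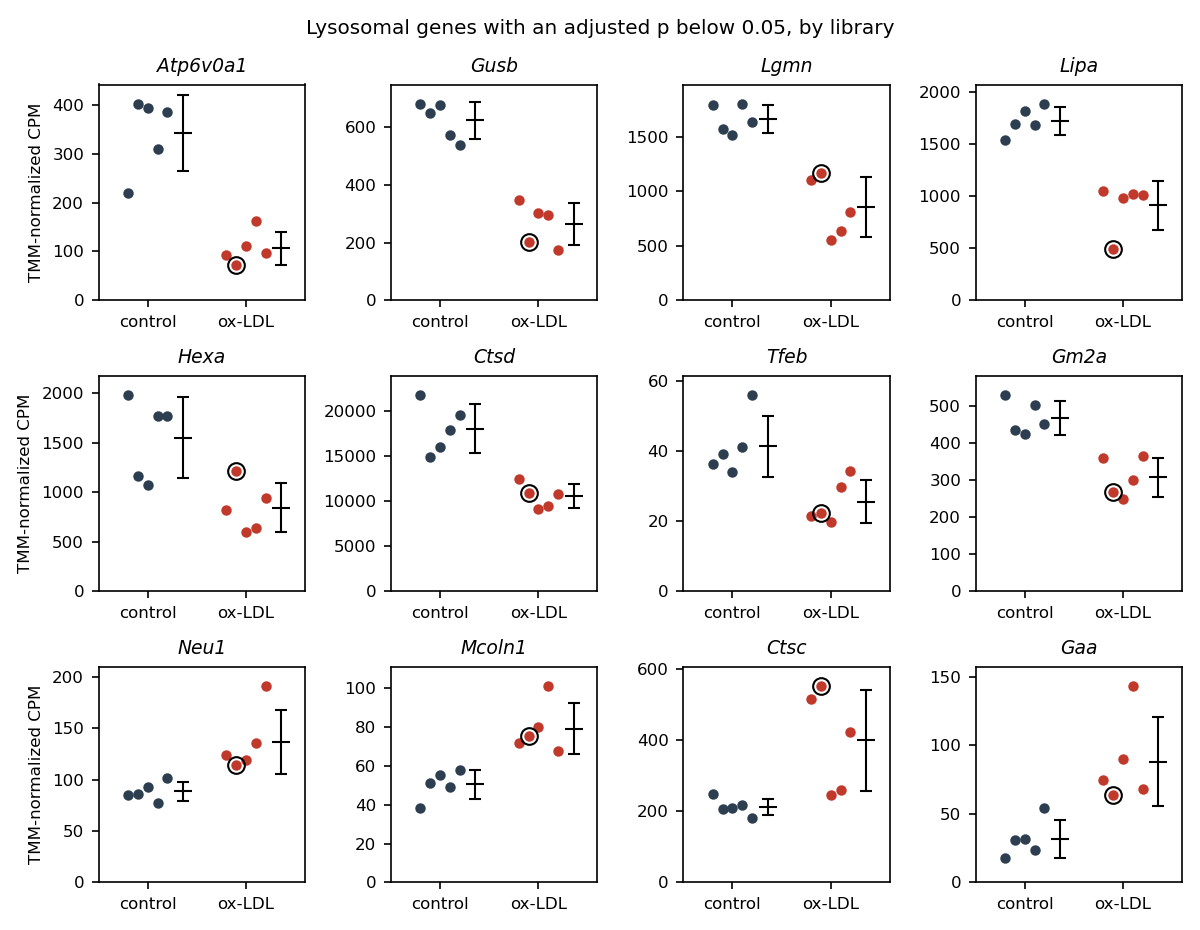
Level in each library (TMM-normalized CPM) of the 12 genes with an adjusted p below 0.05, with the mean and SD of each group (n = 5) beside the points. The open circle marks library ox-LDL 2, which is the lowest ox-LDL library for Lipa (495) and the highest for Hexa (1210) and Ctsc (553).

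The 250 bases upstream of an annotated transcription start are shown for 4 genes, the 3 called genes and Ctsd. Windows with and without a CLEAR-type motif can thus be set side by side. Ctsd was added after its values were seen, as a gene with an 8-base match. The sequences are RefSeq windows on GRCm38.p6, in the direction of transcription, with CACGTG and any extension of it to TCACGTGA in capitals.
Atp6v0a1, chr11:101010148-101010397, plus strand: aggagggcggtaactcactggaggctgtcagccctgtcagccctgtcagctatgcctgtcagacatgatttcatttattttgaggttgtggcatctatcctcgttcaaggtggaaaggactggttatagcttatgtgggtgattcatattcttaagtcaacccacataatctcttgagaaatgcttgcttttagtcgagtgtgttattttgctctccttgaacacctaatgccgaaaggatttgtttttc
Gusb, chr5:130003050-130003299, minus strand: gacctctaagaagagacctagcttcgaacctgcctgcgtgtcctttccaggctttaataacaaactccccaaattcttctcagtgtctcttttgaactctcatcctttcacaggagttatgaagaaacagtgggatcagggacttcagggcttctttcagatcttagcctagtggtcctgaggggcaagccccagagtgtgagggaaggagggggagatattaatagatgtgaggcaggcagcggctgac
Gaa, chr11:119267713-119267962, plus strand: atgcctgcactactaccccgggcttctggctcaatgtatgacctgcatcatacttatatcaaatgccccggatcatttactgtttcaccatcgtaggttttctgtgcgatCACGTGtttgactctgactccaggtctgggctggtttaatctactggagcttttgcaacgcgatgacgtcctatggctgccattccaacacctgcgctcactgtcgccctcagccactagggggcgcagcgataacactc
Ctsd, chr7:142387828-142388077, minus strand: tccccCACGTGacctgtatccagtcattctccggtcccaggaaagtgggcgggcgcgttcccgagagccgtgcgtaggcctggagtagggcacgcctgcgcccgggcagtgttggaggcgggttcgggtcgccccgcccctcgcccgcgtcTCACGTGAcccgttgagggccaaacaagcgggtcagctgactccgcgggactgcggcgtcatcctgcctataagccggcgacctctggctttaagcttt

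The 10-base CLEAR palindrome, its 8-base core TCACGTGA and the 6-base CACGTG nest in each other and read the same on both strands. Each was searched in windows from 250 bases before to 50 bases after the start, which were given for 36 of the 43 genes. CACGTG was found for 12 of the 36 (33.3%), against 8.09% of the 27025 genes with a window, and TCACGTGA for 6 (16.7%), against 1.12%. The full palindrome was found for 0 of the 36 and for 0.370% of all genes. In Gaa, CACGTG began 140 bases upstream of the start, in Ctsd 245 and 98 bases upstream, and in Mcoln1 71 and 45 bases upstream. The Lamp1 window held 4 copies, whereas those of Atp6v0a1, Gusb, Lipa, Hexa, Tfeb, Tfe3 and Mitf held no copy. Only the starts with a given window were searched. The windows and the gene positions are on different builds, and whether the Atp6v0a1 start is the 5' end of that gene was not checked. Its window therefore does not show that Atp6v0a1 lacks the motif at another start. By role, the motif was in the windows of 4 of 9 proteases, 0 of 5 lipid hydrolases and activators, 3 of 8 glycosidases, 2 of 3 membrane proteins, 3 of 8 V-ATPase subunits and 0 of 3 MiT/TFE genes. Such a match describes the sequence and not binding.

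None of the 11 proteases passed 0.01, and 1 was called higher and 2 lower at 0.05. Their median log2 fold change was 0.07, and it was negative under upper-quartile factors (-0.08), library size alone (-0.11) and FPKM (-0.14). Ctsd, the aspartic protease cathepsin D, had 18000 ± 2730 CPM in control and 10500 ± 1310 in ox-LDL libraries (SD, n = 5), a log2 fold change of -0.77 ± 0.26 (SE) with an adjusted p of 0.0441 in edgeR's quasi-likelihood test. Its 5 control libraries lay between 14900 and 21700 and its 5 ox-LDL libraries between 9140 and 12400, without overlap. Lgmn, the asparaginyl endopeptidase legumain that processes other cathepsins, went from 1670 ± 128 to 855 ± 273 CPM (log2 fold change -0.96 ± 0.26, edgeR adjusted p = 0.0178), also without overlap. Without ox-LDL 2, Ctsd (-0.83, edgeR adjusted p = 0.00839) and Lgmn (-1.14, edgeR adjusted p = 0.00193) both passed 0.01, whereas the Ctsd call at 0.05 was lost in most other fits with 1 library left out (edgeR adjusted p of up to 0.107).

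Ctsc, the dipeptidyl peptidase that activates granule serine proteases, was the protease called higher at 0.05. It had 182 to 248 CPM in control and 246 to 553 in ox-LDL libraries, a log2 fold change of 0.91 ± 0.26 (edgeR adjusted p = 0.0235). Only ox-LDL 3, with 246, lay within the control range. The carboxypeptidase gene Ctsz had a log2 fold change of 0.72 ± 0.28 (edgeR adjusted p = 0.0785), with 1610 to 2410 CPM in control and 2390 to 4770 in ox-LDL libraries. Its only overlap was between control 1 (2410) and ox-LDL 1 (2390).

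The largest protease difference, that of the aminopeptidase gene Ctsh (log2 fold change 1.2 ± 0.59, edgeR adjusted p = 0.153), came with a wide spread. Ctsh had 389 to 1140 CPM in control libraries, whereas ox-LDL 2 had 4900 and the remaining 4 of its group 622 to 1620. Without ox-LDL 2 its log2 fold change was 0.26. The elastolytic cathepsin S gene Ctss showed the same library, with 27800 CPM in ox-LDL 2, from 6560 to 11500 in the remaining 4 and 9230 to 16500 in control. For Ctsl, encoding the endopeptidase cathepsin L, ox-LDL 2 had 8030 CPM and the other 4 libraries 2990 to 4210, and the log2 fold change was -0.32 with all libraries and -0.68 without it. Ctsk, encoding the collagen-degrading cathepsin K, ranged from 166 to 556 CPM in control and from 151 to 956 in ox-LDL libraries (log2 fold change 0.46 ± 0.45, edgeR adjusted p = 0.489). The levels of Ctsb, an abundant cysteine protease, overlapped widely, at 8560 to 11300 and 6260 to 11400 CPM. The same held for the carboxypeptidase gene Ctsa (883 to 1240 and 938 to 1350 CPM) and the tripeptidyl peptidase gene Tpp1 (168 to 335 and 192 to 325 CPM).

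Per length, as FPKM (fragments scaled by gene length and library size), the highest of the 43 genes in control libraries were Ctss, at 11200 ± 1460, and Ctsd, at 10500 ± 1160, which differed by less than their spread, and Manba was the lowest, at 7.48 ± 2.47. In the summed FPKM of the 9 cathepsin genes, Ctsd took 30.9% ± 2.37 in control and 21.2% ± 5.37 in ox-LDL libraries, with 28.0% to 33.5% and 12.7% to 27.2% per library. Ctsz took 4.80% ± 0.285 and 8.80% ± 1.35, and Ctss 33.0% ± 3.03 and 33.3% ± 9.84, the latter spread carried by the 50.2% of ox-LDL 2. The shares of Ctsd and of Ctsz did not overlap between the groups, nor did the small share of Ctsc (0.108% to 0.174% in control and 0.211% to 0.423% in ox-LDL libraries). These shares sum to 100% in a library and were not tested.

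**Figure D3:**
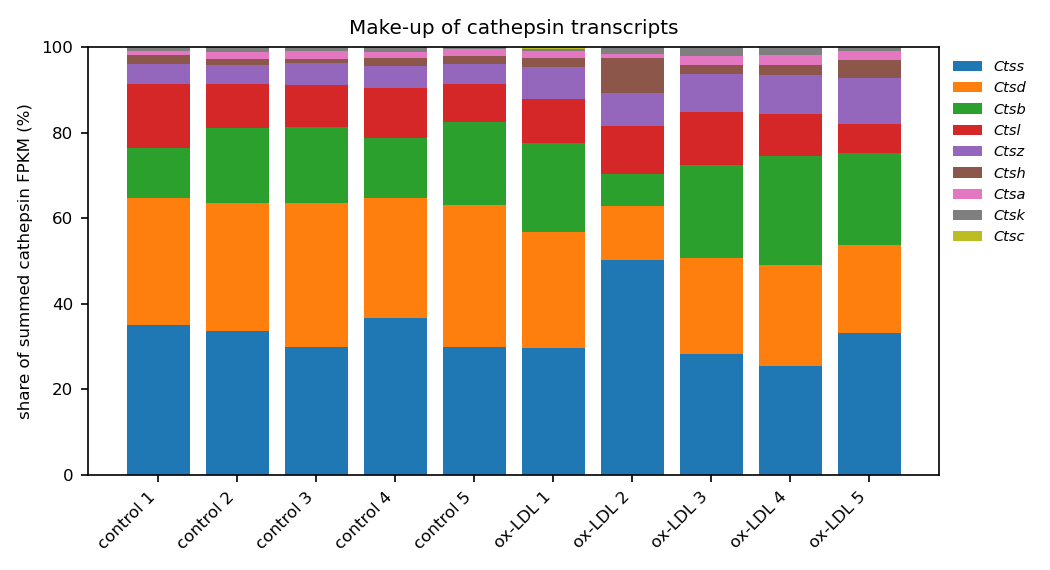
Share of each cathepsin gene in the summed FPKM of the 9 cathepsin genes (percent), for each of the 10 libraries. Ctsd takes 28.0% to 33.5% in control and 12.7% to 27.2% in ox-LDL libraries, and ox-LDL 2 differs from the other ox-LDL libraries by its 50.2% of Ctss.

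None of the 6 genes for lipid hydrolases and activators passed 0.01, 2 were called lower at 0.05, and 5 of the 6 had a negative log2 fold change. Their median of -0.41 stayed negative under every scaling tried (-0.61 to -0.38 under upper-quartile factors, library size alone, DESeq2, FPKM and removal of the length trend), against -0.18 to 0.10 over all genes. Lipa, the lysosomal acid lipase that frees cholesterol from lipoprotein cholesteryl esters, had 1540 to 1880 CPM in control libraries, 981 to 1050 in 4 ox-LDL libraries and 495 in ox-LDL 2. The groups did not overlap, and the log2 fold change was -0.92 ± 0.25 (edgeR adjusted p = 0.0193). Without ox-LDL 2, its lowest library, the difference was smaller but passed 0.01 (-0.80, edgeR adjusted p = 0.00209). Gm2a, the activator that presents ganglioside GM2 to hexosaminidase, went from 468 ± 45.8 to 308 ± 52.7 CPM (log2 fold change -0.60 ± 0.20, edgeR adjusted p = 0.0414), again without overlap. Asah1, encoding acid ceramidase, had a log2 fold change of -0.60 ± 0.25 (edgeR adjusted p = 0.0974), and of -0.82 without ox-LDL 2 (edgeR adjusted p = 0.00708). The acid sphingomyelinase gene Smpd1 was even among control libraries (37.3 to 41.7 CPM) and lay at 28.5 to 40.2 CPM in ox-LDL libraries. Ppt1, which removes palmitate from proteins, had 106 to 161 and 85.4 to 212 CPM. Psap, the precursor of the saposins, had 6850 to 8630 CPM in 4 control libraries, 13100 in control 5 and 6900 to 10600 in ox-LDL libraries, so that the groups overlapped.

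Among the 8 glycosidase genes, 1 rose and 1 fell at 0.01, and their median log2 fold change was -0.21. Gaa lies at chr11:119129201-119146768 on the plus strand of mm9, where the annotation has no other gene on either strand. It had 18.1, 30.7, 31.4, 23.4 and 54.3 CPM in control libraries 1 to 5 and 74.6, 63.8, 89.6, 143 and 68.0 CPM in ox-LDL libraries 1 to 5. Every ox-LDL library lay above every control library, the nearest pair being control 5 and ox-LDL 2. The mean went from 31.6 ± 13.8 to 87.9 ± 32.5 CPM, a log2 fold change of 1.47 ± 0.32 (edgeR adjusted p = 0.00499). The call was close to the threshold: it held in 11 of 22 alternatives, with adjusted p-values of up to 0.0400. It was lost without control 1 (edgeR adjusted p = 0.0139), control 2 (0.0158), control 3 (0.0146), control 4 (0.0176), ox-LDL 3 (0.0125) or ox-LDL 4 (0.0124), and the log2 fold change stayed between 1.23 and 1.76 when each library was left out.

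Gusb lies at chr5:130464881-130478919 on the minus strand of mm9, again with no other annotated gene over it. It had 678, 649, 676, 570 and 538 CPM in control libraries and 346, 203, 302, 295 and 174 CPM in ox-LDL libraries, in the order of their replicate numbers. Every ox-LDL library lay below every control library, the nearest being control 5 and ox-LDL 1. The mean went from 622 ± 64.1 to 264 ± 72.3 CPM, a log2 fold change of -1.24 ± 0.24 (edgeR adjusted p = 0.00253). Gusb passed 0.01 in 21 of 22 alternatives, the exception being library size alone (edgeR adjusted p = 0.0116).

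Hexa, the alpha subunit of hexosaminidase A, had 1070 to 1980 CPM in control and 600 to 1210 in ox-LDL libraries (log2 fold change -0.88 ± 0.28, edgeR adjusted p = 0.0395). The overlap came from ox-LDL 2 (1210), without which the log2 fold change was -1.08 (edgeR adjusted p = 0.00482). Without ox-LDL 3, in contrast, Hexa did not pass 0.05 (edgeR adjusted p = 0.0992). Hexa and Gm2a, whose products act together on ganglioside GM2, thus both had lower means in ox-LDL libraries. Neu1, the sialidase, was the other glycosidase called higher at 0.05, with 77.6 to 102 CPM in control and 114 to 191 in ox-LDL libraries (log2 fold change 0.62 ± 0.19, edgeR adjusted p = 0.0291). The genes of alpha-mannosidase and beta-mannosidase, Man2b1 and Manba, did not reach 0.05. Man2b1 had a log2 fold change of -0.66 ± 0.26 (edgeR adjusted p = 0.0841). Manba had one of -0.45, at 17.2 to 29.8 CPM in control and 9.74 to 25.3 in ox-LDL libraries. Gla, the alpha-galactosidase, had 362 to 480 CPM in control, 384 to 642 in 4 ox-LDL libraries and 1090 in ox-LDL 2 (log2 fold change 0.50 ± 0.29, edgeR adjusted p = 0.23). Glb1, the beta-galactosidase, had 54.3 to 61.8 and 41.5 to 82.7 CPM.

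Of the 3 membrane proteins, none passed 0.01. Mcoln1, the calcium channel of the lysosomal membrane, had 38.5 to 58.1 CPM in control and 67.6 to 101 in ox-LDL libraries, without overlap (log2 fold change 0.65 ± 0.18, edgeR adjusted p = 0.018). The genes of the main glycoproteins of that membrane had values in the other direction. Lamp1 had 1990 to 2520 CPM in control and 1540 to 1930 in ox-LDL libraries, without overlap, but its log2 fold change of -0.41 ± 0.21 did not pass (edgeR adjusted p = 0.186). Lamp2 had a log2 fold change of -0.39, with 713 to 1200 and 532 to 964 CPM.

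Of the 12 V-ATPase genes, 1 fell and none rose at 0.01, and the same held at 0.05. Their median log2 fold change was -0.02, and 6 of the 12 were positive. Atp6v0a1, one of the genes for the a subunit of the V0 sector, which carries the proton path and directs the pump to its membrane, lies at chr11:100870766-100925033 on the plus strand of mm9 with no other annotated gene over it. It had 219, 401, 393, 309 and 385 CPM in control libraries 1 to 5 and 93.6, 72.1, 111, 162 and 96 CPM in ox-LDL libraries 1 to 5. Every ox-LDL library lay below every control library, the nearest being control 1 and ox-LDL 4. The mean went from 341 ± 77.9 to 107 ± 33.7 CPM, a log2 fold change of -1.67 ± 0.26 (edgeR adjusted p = 0.000727). Atp6v0a1 was called in all 22 alternatives, with edgeR or other adjusted p-values of at most 0.00366, and its log2 fold change stayed between -1.87 and -1.60 when each library was left out.

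The other a-subunit genes did not show such a difference. Tcirg1, the a3 gene known from osteoclasts and macrophage lysosomes, had a log2 fold change of 0.23 (edgeR adjusted p = 0.649), and Atp6v0a2, the a2 gene known from the Golgi, one of 0.26 (edgeR adjusted p = 0.431). Per length, Atp6v0a1 was at 99.5 ± 31.3 FPKM in control and 28.3 ± 13.6 in ox-LDL libraries, whereas Tcirg1 was at 133 ± 42.3 and 138 ± 65.8. In the summed FPKM of these 3 genes, Atp6v0a1 took 41.9% ± 2.59 in control and 17.4% ± 5.13 in ox-LDL libraries, and Tcirg1 took 56.1% ± 2.47 and 79.2% ± 5.87. The Atp6v0a1 share was between 39.2% and 45% in control and between 8.55% and 21.1% in ox-LDL libraries. This share was looked at after the values were seen and was not tested.

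The d subunit of the V0 sector is also made from alternative genes, the widely expressed Atp6v0d1 and Atp6v0d2, which is known from osteoclasts and macrophages. Atp6v0d2 had 2680, 2040, 1990, 3090 and 1470 CPM in control libraries and 1070, 2200, 1130, 905 and 782 CPM in ox-LDL libraries. It did not pass (log2 fold change -0.89 ± 0.33, edgeR adjusted p = 0.069), and ox-LDL 2 alone lay within the control range. Without that library the log2 fold change was -1.26 (edgeR adjusted p = 0.00196). Atp6v0d1 had 293, 256, 278, 292 and 301 CPM in control and 214, 403, 267, 274 and 330 CPM in ox-LDL libraries, so that ox-LDL libraries lay both below and above the control range (log2 fold change 0.07 ± 0.21, edgeR adjusted p = 0.844). The sign of this difference was the opposite under upper-quartile factors, library size alone and FPKM.

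Within a library, the log2 ratio of Atp6v0d2 to Atp6v0d1 FPKM is free of the scaling between libraries. It is not free of their length trends, as the genes have lengths of 2337 and 1459 bases, and the part of these trends was not tested. The log2 ratio was 2.51, 2.31, 2.16, 2.72 and 1.61 in control libraries and 1.64, 1.77, 1.39, 1.04 and 0.56 in ox-LDL libraries. The groups overlapped through control 5, which lay below ox-LDL 1 and ox-LDL 2. The mean was 2.26 ± 0.42 in control and 1.28 ± 0.49 in ox-LDL, a difference of -0.98 (two-sided exact permutation test, n = 5 per group, p = 0.0238). On the linear scale the ratio was 3.05 to 6.61 in control and 1.48 to 3.41 in ox-LDL libraries, so Atp6v0d2 was the more abundant of both genes per length in all 10.

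The remaining V0 genes did not pass. Atp6v0b, a proteolipid of the membrane ring, had 391 to 567 CPM in control, 339 to 960 in 4 ox-LDL libraries and 1600 in ox-LDL 2 (log2 fold change 0.84 ± 0.37, edgeR adjusted p = 0.115). Atp6v0c, the main proteolipid of that ring, was the V-ATPase gene with the highest FPKM in both groups, at 1320 ± 294 and 1300 ± 335. The accessory subunit gene Atp6ap1 had 471 to 591 CPM in control and 371 to 513 in ox-LDL libraries (log2 fold change -0.27). In the plot of V-ATPase levels, the FPKM of Atp6v0a1, Atp6v0d2 and Atp6ap1 and of the V1 gene Atp6v1c1 were lower in every ox-LDL library than in every control library. In CPM, only Atp6v0a1 among them was without overlap. The median log2 fold change of all genes was also lower with log2(FPKM + 1), at -0.14. The share of all genes without overlap in FPKM was not computed.

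None of the 6 V1 genes passed, and their median log2 fold change was 0.06 (negative under upper-quartile factors, library size alone and FPKM). Atp6v1e1 and Atp6v1h, a peripheral stalk subunit and a regulator of ATPase activity, had log2 fold changes of 0.55 ± 0.29 (edgeR adjusted p = 0.183) and 0.51 ± 0.23 (edgeR adjusted p = 0.123). The genes of the nucleotide-binding B2 subunit and of the C1 subunit, Atp6v1b2 and Atp6v1c1, had log2 fold changes of -0.34 and -0.36. The catalytic A subunit gene Atp6v1a had 637 to 920 CPM in control and 398 to 945 in ox-LDL libraries, and the rotor subunit gene Atp6v1d 274 to 329 and 216 to 535 CPM.

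**Figure D4:**
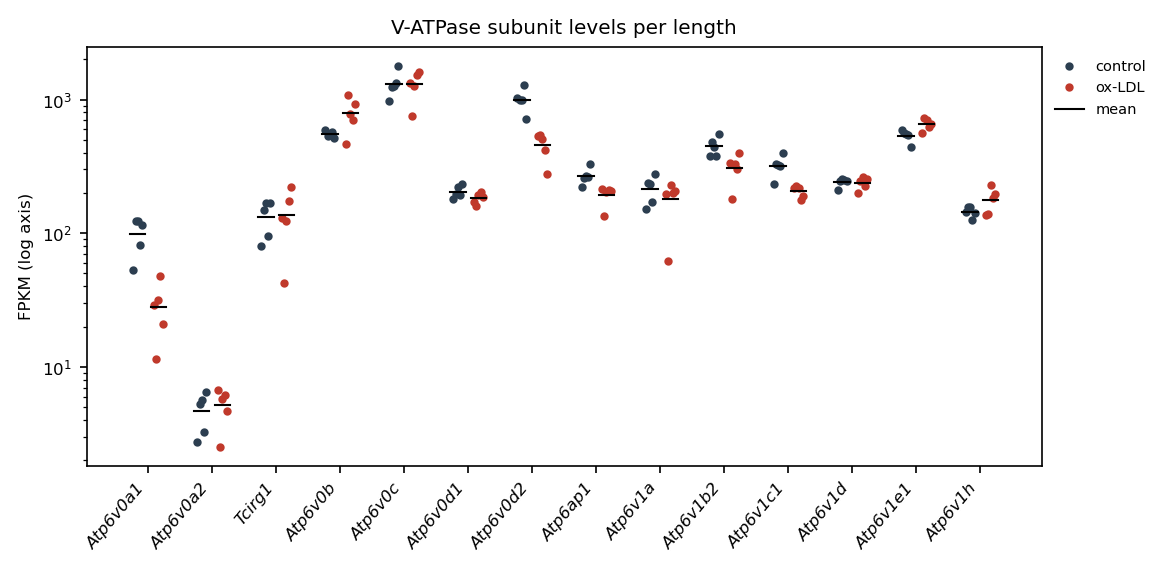
Level per length (FPKM, log axis) of the 12 V-ATPase genes and of the a-subunit genes Tcirg1 and Atp6v0a2 in each library, with the mean of each group as a line (n = 5). Atp6v0a1 goes from a mean of 99.5 to 28.3 and Atp6v0d2 from 998 to 457. The means of Atp6v0c (1320 and 1300) and Tcirg1 (133 and 138) are close between the groups. Their ox-LDL libraries are spread, from 754 to 1610 for Atp6v0c and from 42.6 to 220 for Tcirg1.

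None of the MiT/TFE genes passed 0.01. Tfeb, the factor best known as a regulator of lysosomal genes, had 36.3, 39.2, 34.0, 41.2 and 55.9 CPM in control libraries and 21.6, 22.3, 19.9, 29.8 and 34.2 CPM in ox-LDL libraries. The groups overlapped at control 3 and ox-LDL 5 alone, and the log2 fold change was -0.69 ± 0.21 (edgeR adjusted p = 0.0269). Tfe3, its relative with many shared targets, had 48.0, 61.1, 54.4, 55.1 and 75.2 CPM in control and 58.4, 26.7, 59.9, 73.1 and 68.4 CPM in ox-LDL libraries. Apart from the low value of ox-LDL 2, the Tfe3 values of the groups lay in the same range (log2 fold change -0.04 ± 0.25, edgeR adjusted p = 0.938), and the 95% interval of the difference ran from -0.58 to 0.51. Mitf, the family member known from melanocytes and osteoclasts, had 40.8, 57.1, 56.3, 44.7 and 56.3 CPM in control and 33.1, 16.0, 41.7, 34.9 and 61.6 CPM in ox-LDL libraries. Its lowest value was again that of ox-LDL 2 and its highest that of ox-LDL 5 (log2 fold change -0.44 ± 0.29, edgeR adjusted p = 0.282). The activity of these factors depends on their entry into the nucleus, which RNA levels do not measure.

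Gene length separated the 43 genes within libraries. In ox-LDL 2, the 10 genes shorter than 1500 bases had a median deviation of 0.88 on the log2 scale from their group mean, and the 13 genes of at least 2500 bases one of -0.48. Ctsh (2.02), Ctss (1.38) and Atp6v0b (1.17) deviated upward the most in that library, and Mitf (-1.06), Tfe3 (-1.0) and Lipa (-0.83) downward. Over the 43 genes, which share their library, the Spearman correlation of deviation with length was -0.62 in ox-LDL 2, -0.58 in control 1 and -0.72 in control 4. With the length trend of each library removed, Gaa (log2 fold change 1.44, edgeR adjusted p = 0.00103), Gusb (-1.23, edgeR adjusted p = 0.000328) and Atp6v0a1 (-1.76, edgeR adjusted p = 2.46e-05) were called again. Ctsz, Mcoln1, Atp6v0b and Atp6v1e1 were then also called higher and Ctsd, Lgmn, Lipa, Hexa and Man2b1 lower. The cause of the length trend was not tested.

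**Figure D5:**
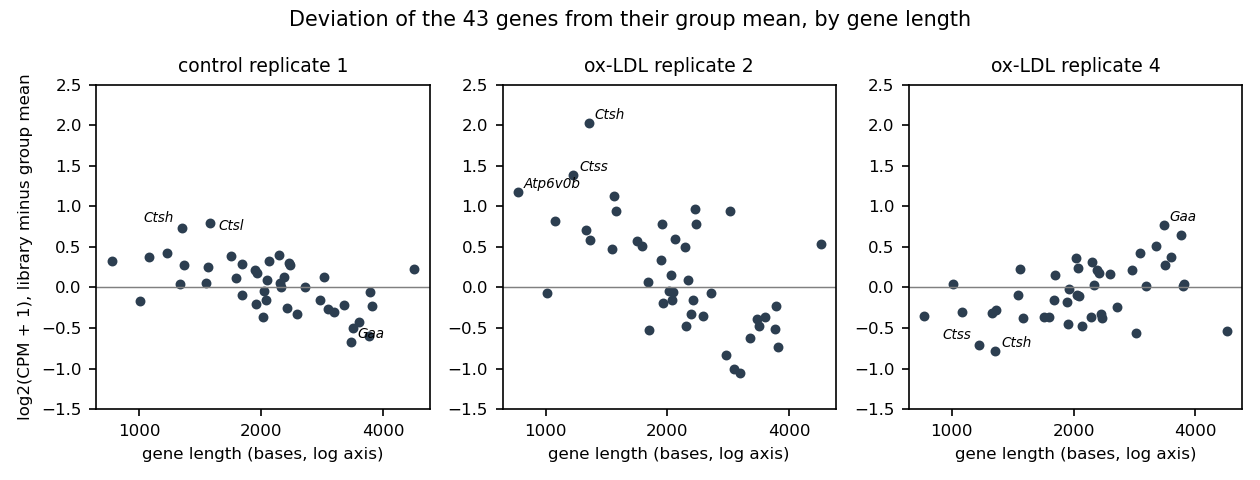
Deviation of each of the 43 genes from its group mean on the log2(CPM + 1) scale against gene length (bases, log axis), in control 1, ox-LDL 2 and ox-LDL 4. In ox-LDL 2, most of the short genes lie above 0 and most of the long ones below it, with Ctsh at 2.02, whereas in ox-LDL 4 the slope is the other way.

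Other lysosomal genes were read from 7 wider lists of 117 genes, of which 112 were matched to rows and 106 tested. At 0.01, 10 of the 106 were called higher and 7 lower, shares close to the 9.40% and 5.35% of all genes tested, and their median log2 fold change was 0.11. Among 29 further soluble hydrolases, 2 rose and 5 fell, with a median of 0.06. Acp5, the tartrate-resistant acid phosphatase, rose from 102 ± 39.8 to 576 ± 282 CPM (log2 fold change 2.49 ± 0.39, edgeR adjusted p = 0.000667). Galc, which removes galactose from galactosylceramide, fell from 135 ± 11.3 to 39.6 ± 15.0 CPM (log2 fold change -1.77 ± 0.27, edgeR adjusted p = 0.000613). Fuca1, the alpha-fucosidase, fell 3.00-fold (edgeR adjusted p = 0.00184). The genes of 2 enzymes that degrade heparan sulfate also fell, Sgsh by 4.10-fold from 10.3 CPM (edgeR adjusted p = 0.00482) and Ids by 2.32-fold (edgeR adjusted p = 0.00258). The cysteine protease gene Ctso fell 2.05-fold (edgeR adjusted p = 0.00469). Sgsh is overlapped by Card14 on the other strand, and its call was lost when any library other than ox-LDL 1 or ox-LDL 2 was left out (edgeR adjusted p of up to 0.015). The Ctso call was lost without control 1, 2, 3 or 4 or ox-LDL 3 or 4 (edgeR adjusted p of up to 0.0162).

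Among 21 further membrane proteins, 4 rose and 2 fell, with a median of 0.02. Clcn7, the chloride-proton exchanger of lysosomes, rose from 109 ± 19 to 395 ± 111 CPM (log2 fold change 1.86 ± 0.25, edgeR adjusted p = 0.000289). Slc15a3, a peptide and histidine transporter, rose 3.39-fold (edgeR adjusted p = 0.00235), Slc11a1, the divalent metal transporter of phagosomes, 2.09-fold (edgeR adjusted p = 0.00608), and Laptm4b 1.88-fold (edgeR adjusted p = 0.00446). Slc15a3 is overlapped by Tmem132a on the other strand, so its reads may be shared. The cation channel genes Tpcn1 and Mcoln3 fell, by 5.64-fold (edgeR adjusted p = 0.000416) and 3.65-fold (edgeR adjusted p = 0.00016). Mcoln1 and Mcoln3, channels of the same family, thus had values in opposite directions. Mcoln2, also of that family, had a log2 fold change of 0.93 and did not pass 0.01 (edgeR adjusted p = 0.0263). The call of Slc11a1 was lost without control 1, 2, 3 or 4 or ox-LDL 3, 4 or 5 (edgeR adjusted p of up to 0.0227), and that of Laptm4b without control 1, 2 or 4 or ox-LDL 5 (edgeR adjusted p of up to 0.0169). None of the 7 further V-ATPase subunits tested passed, at a median of 0.23.

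In the mannose 6-phosphate and sorting list, 1 of 9 rose, M6pr, the cation-dependent receptor that carries hydrolases to lysosomes (334 ± 36.3 to 704 ± 196 CPM, log2 fold change 1.07 ± 0.23, edgeR adjusted p = 0.0049). The M6pr call was lost without control 1, 2, 3 or 4 or ox-LDL 3 (edgeR adjusted p of up to 0.0194). Of 5 cathepsin inhibitors tested, 2 rose. Cst7, cystatin F, went from 0.0428 to 0.478 CPM in control to a mean of 32.5 ± 6.76 CPM in ox-LDL libraries (edgeR adjusted p = 2.39e-06), and its fold change is not given since control counts reached down to 1 read. Serpina3g, a serpin that inhibits cathepsins, had 0.171 to 6.95 CPM in control and a mean of 496 ± 390 CPM in ox-LDL libraries (edgeR adjusted p = 0.000287). Serpina3g belongs to a cluster of similar genes, so its reads may be shared with its neighbors. None of 18 regulators of the MiT/TFE factors passed, at a median of 0.00. Of 17 autophagy genes, 1 rose, Sqstm1, the cargo receptor p62 (222 ± 46.4 to 1380 ± 441 CPM, log2 fold change 2.64 ± 0.31, edgeR adjusted p = 0.000105). Sqstm1 is overlapped by 3010026O09Rik on the other strand, so its reads may be shared too.

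Most markers of other cells were low. In ox-LDL libraries, however, S100a8 reached 152 CPM and Dcn 91.6 CPM, where the macrophage marker Mertk had 49.1 to 81.5 CPM. The summed CPM of 6 neutrophil markers was 5.48 to 14.2 in control and 11.3 to 153 in ox-LDL libraries, where S100a8 rose (edgeR adjusted p = 0.0031) while Mpo and Elane had at most 2 reads in any library. The sum of 7 mesothelial and stromal markers was 13.0 to 45.8 and 82.8 to 146, where Col1a1, Col1a2 and Dcn rose, whereas Msln, Upk3b and Krt19 had at most 30 reads. The sums of 5 B cell, 4 T cell, 5 eosinophil and mast cell and 4 dendritic cell markers were at most 7.43 CPM in any library, where the dendritic cell marker Clec9a rose. The sum of 7 macrophage markers was 18500 to 45700 and 10700 to 45900 CPM. Most of it was Lyz2, with 17500 to 44700 and 8710 to 44500 CPM, so the sum says little about the other markers. Adgre1 and Cd14 rose, and the other markers were not called. Of these, Lyz2 and Itgam had negative log2 fold changes (-0.67 and -0.78). Csf1r, Mertk and Fcgr1 had positive ones (0.74, 0.63 and 0.56). The part of the cell types named here in the differences above was not tested. In these bulk samples, fewer cells of a type and less RNA per cell cannot be told apart.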

How the data were processed

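RNA-seq of 5 control and 5 ox-LDL libraries was analysed, with groups and replicate numbers from the sample titles. Per the submitters' processing notes and the study's methods, the tools were FastQC, HISAT2 (version 2.0.5, on mm9), SAMtools (version 1.4) and StringTie. The authors deposited estimated counts for each gene, without normalization, and 13.6% of them were not whole. How reads were counted, and whether by strand, is not given in the sources used here. Files of single libraries, also deposited by the authors, hold length-scaled expression that was taken as FPKM, although no header or label names a unit. The reason is that dividing counts by it and by the library total gave nearly 1 length per gene (ratio between libraries under 1.2 for 96.7% of 1904 genes), and that length is the gene length used here.

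Rows of 9788 circular RNAs (1.44% to 2.24% of the counts) were left out, and 23382 NCBI genes and 6318 rows without a symbol were kept. Estimated counts were rounded, filtered by edgeR's filterByExpr, normalized by TMM and tested by edgeR's quasi-likelihood test (edgeR 4.0.16, R 4.3.3), with Benjamini-Hochberg adjustment over 12654 genes and calls at an adjusted p below 0.01. Errors of log2 fold changes are SE, those of means SD. The ratio of both d-subunit genes was tested by exact permutation on log2(FPKM + 1). Alternatives were DESeq2 1.42.0, limma-voom (limma 3.58.1), upper-quartile factors, library size alone, other filters, limma on log2(FPKM + 1) or log2(FPKM + 0.1), removal of length trends, NCBI genes alone, a replicate block, each library left out and other thresholds. On simulated data, edgeR recovered 3 of 50 genes changed by 1, 80 of 100 changed by 2 and 48 of 50 changed by 3 on the log2 scale, with 0 false calls among 12277 genes. Such a rate limits what can be read from genes that were not called. Genes were simulated independently of each other and without a length trend, unlike the libraries here.

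The genes, lists and tests were chosen with earlier results of these data known. Values per library were printed for genes called at 0.01, the MiT/TFE genes and both d-subunit genes, and up to 6 called genes were named per wider list. Positions are from the GENCODE annotation of mm9, and promoter windows from RefSeq on GRCm38.p6, matched by symbol or gene ID. Ctsa, Ctsb, Ctsz, Ppt1, Lamp1 and Atp6v1b2 overlap a coding gene on the other strand and Ctsd one on its own, so their reads may be shared. The labels name no batch. The lowest chi-square per degree of freedom between 2 libraries of a group was 10.3, for control 2 and control 3, so no library was another one sequenced again. Whether 2 libraries came from the same cells or RNA cannot be told from this value. The deviations of same-numbered libraries correlated at 0.51 and 0.42 for replicates 3 and 5, but at -0.04, -0.42 and -0.38 for replicates 1, 2 and 4. These values do not settle whether the samples were paired, and the numbers were not taken to pair them.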

Additional observations from a re-analysis of the deposited data

Results flagged for a closer look

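In each group of 5 libraries, the gap between the highest or lowest library and its neighbor was set against the group's range, with 0.71 as the 95% limit of Dixon's test. This was done for 88 groups, mostly single genes in 1 condition; 9 passed, where chance passes about 1 in 20, or 4.4 of them. Library ox-LDL 2 was the one apart for 5 genes. It was highest for Ctsh at 4900 CPM (next 1620), for Ctsl at 8030 CPM (next 4210), for Ctss at 27800 CPM (next 11500) and for Atp6v0d2 at 2200 CPM (next 1130). It was lowest for Lipa at 495 CPM (next 981). Library ox-LDL 5 was highest for Neu1 at 191 CPM (next 136) and for the B2 subunit gene Atp6v1b2 at 1250 CPM (next 803). Control 5 was highest for Ctsb at 11300 CPM (next 8870) and for Psap at 13100 CPM (next 8630). Ctsh, Ctsl and Ctss are the shortest of the genes named here, with lengths of 1277, 1497 and 1169 bases, and the part of the length trend of ox-LDL 2 in their values was not tested.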

How the results depend on the processing

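The counts of lysosomal genes called at 0.01 (1 higher and 2 lower) moved with the settings. They were 0 and 5 under upper-quartile factors (7.55% and 6.39% of all genes), 0 and 4 with library size alone (5.56% and 4.61%), 4 and 7 with DESeq2 (13.9% and 9.83%), 0 and 6 with limma on log2(FPKM + 1) (5.3% and 7.16%) or log2(FPKM + 0.1) (5.19% and 6.69%), and 5 and 7 with length trends removed (13% and 9.65%). They were 4 and 8 at an adjusted p below 0.05 and 0 and 0 with an absolute log2 fold change above 2 added. With 1 library left out they were 0 to 1 higher and 2 to 8 lower. With ox-LDL 2, ox-LDL 5 and control 5 left out together, a setting chosen after seeing the data, they were 2 and 9, against 14.7% and 12.5% of all genes. They were 1 and 2 with limma-voom, NCBI genes alone and both other filters. The cause of these changes was not tested.

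Gusb and Atp6v0a1 kept their direction in all 22 alternatives. Over the wider lists, where all alternatives were added after seeing the data, 17 genes were called, 11 with library size alone, 29 with DESeq2, 34 without the 3 libraries and 11 to 30 with 1 left out (11 without control 1, 2 or 4, 30 without ox-LDL 2). Over the settings, 36 to 43 of the 43 genes had the sign of the values reported. Among those of the 43 genes whose fold change is given, the sign turned for 4, none of them called. Without the 3 libraries, Ctsh was at -0.16, Ctsk at -0.06, Tfe3 at 0.17 and Atp6v0d1 at -0.21. Atp6v0d1 was at -0.09 under upper-quartile factors and at -0.16 with library size alone or either FPKM setting. With 1 library left out, Atp6v0d1 ran from -0.11 to 0.17 and Tfe3 from -0.14 to 0.11. Tcirg1, from the wider lists, then ran from -0.12 to 0.36.

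The median log2 fold change of all genes moved from 0.10 to -0.05 under upper-quartile factors, -0.09 with library size alone and -0.14 with log2(FPKM + 1), and that of the 43 genes to -0.21, -0.30 and -0.36. With log2(FPKM + 1), 555 genes were called higher and 750 lower, against 1189 and 677.

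Same-numbered libraries correlated at -0.42 to 0.51 in their deviations, and 3 of 10 libraries correlated best with their own number. With the replicate number as a block, 0 genes were called higher and 2 lower (Gaa: adjusted p = 0.0125), 13 of the wider lists were called, and the d-subunit log2 ratio, at -0.98, had an exact permutation p of 0.0625, the smallest that 5 pairs allow. Without each library, that difference ran from -1.15 to -0.80, with exact permutation p of 0.00794 to 0.0397. Each of the 43 genes had at least 149 reads in every library, and the biological coefficient of variation between libraries was 37.3%. On simulated data, DESeq2 made 17 false calls where edgeR made 0. The simulated libraries held no length trend, so these counts need not hold for the libraries here.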

Other observations

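Several of these genes are also known as genes of osteoclasts, macrophage-derived cells that dissolve bone with acid and cathepsin K, and as a group chosen after their values were seen they did not move together. Acp5 (log2 fold change 2.49, 5.63-fold) and Clcn7 (1.86, 3.62-fold) rose in ox-LDL libraries. Ctsk (0.46, edgeR adjusted p = 0.489), Tcirg1 (0.23, edgeR adjusted p = 0.649), Atp6v0d2 (-0.89, edgeR adjusted p = 0.069) and Mitf (-0.44, edgeR adjusted p = 0.282) did not pass. Dcstamp, which acts in cell fusion, had 5.65 to 32.8 CPM in control and 2.17 to 12 CPM in ox-LDL libraries (log2 fold change -1.5, edgeR adjusted p = 0.0599). Calcr and Oscar, which mark osteoclasts, had at most 1 read in any library, and Ocstamp at most 12.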
